A study of Mus musculus with 11 samples.

Results

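The microglial identity transcription factors examined here are 8 genes, Runx1, Ikzf1, Mef2a, Mef2c, Sall1, Irf8, Maf and Bhlhe41, of the 31053 genes counted. They were taken by symbol from a named list, whose rule uses no measured value, although the list was drawn up with earlier results of these data known. The study sequenced RNA of nuclei sorted from frozen cortex of 11 mice with 10x Chromium 3′ chemistry, giving each mouse 1 library, in a study of NF-κB signaling in microglia of mice that develop tau pathology. The labels give all mice as female, whereas the study's methods describe the mice of its RNA-seq as male, and this was not resolved. Per those methods all mice received tamoxifen. Counts are unique molecular identifiers (UMIs), each standing for 1 captured RNA molecule, and because the reference also counted unspliced transcripts the values include nuclear pre-mRNA.

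The 4 nontransgenic mice (ikbkb+/+, 9.8 to 10.85 months old) carried neither human tau nor Cre. The 3 P301S mice (ikbkb+/+; P301S+, 9.15 to 10.75 months) carried the PS19 transgene, human tau with the P301S mutation driven by the prion promoter, and no Cre. The 2 knockout mice (ikbkb-/-; P301S+, 8.39 to 9.15 months) carried tau, CreERT2 in 1 Cx3cr1 allele and floxed Ikbkb, so that IKKβ, the kinase that releases NF-κB, is deleted in Cx3cr1-expressing cells. The 2 active IKKβ mice (ikbkbCA; P301S+, 9.8 to 10.85 months) carried tau, the same Cre allele and a constitutively active IKKβ behind a floxed stop in the Rosa26 locus. Mice of both Cre groups have only 1 intact Cx3cr1 allele, and border macrophages also express Cx3cr1. The animals came from a floxed and an active breeding line: 2 nontransgenic mice came from each, 2 P301S mice came from the floxed line and 1 from the active line, both knockout mice were floxed-line and both active IKKβ mice were active-line animals. Every comparison of a Cre group with P301S or nontransgenic mice therefore also holds the Cre allele and, in part, the line. Comparisons of the knockout mice also hold age, since no mouse of another group was younger than 9.15 months.

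Transcription factors of this kind bind enhancers together with PU.1 and keep a microglial nucleus on its program. RUNX1 and Ikaros (Ikzf1) act in blood lineages, MEF2A and MEF2C are MADS-box factors shared with neurons and muscle, and SALL1 is a zinc finger repressor that sets microglia apart from other macrophages. IRF8 is an interferon regulatory factor that partners PU.1, MAF is a basic leucine zipper factor of macrophages and of some interneurons, and BHLHE41 is a basic helix-loop-helix repressor that binds E-boxes.

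For Runx1, Mef2a and Bhlhe41, 1 promoter window each holds the letters bound by the gene's own family, and the stretch around each match is printed. A second Runx1 window and the 3 windows of Mef2c hold no match of their own family's motif. Of the printed stretches, that of Mef2a spans the RefSeq start. Capitals mark the motif, all sequences are RefSeq promoters of GRCm38.p6 read 5′ to 3′ on the gene's strand, and the windows lie at chr16:92826029-92826058 for Runx1, chr7:67372841-67372870 for Mef2a and chr6:145865556-145865585 for Bhlhe41, all on the minus strand.
Runx1, RUNX motif: acctcataaacaACCACAgaACCACAagtt
Mef2a, MEF2 motif: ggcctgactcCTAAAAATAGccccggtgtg
Bhlhe41, E-box: tggtacgttccgCACGTGagctgggtgctg
The RUNX motif was searched as TGTGGT, the E-box as CACGTG, and the MEF2 and NF-κB motifs by their usual consensus, on both strands, and no match of one motif overlapped a match of another. The first Runx1 window holds a RUNX match 28 bases after the start and another 36 bases after it, and an E-box that begins at position -71 from the start. The Mef2a match lies across the start, and the Bhlhe41 E-box begins at position -153. Of 32851 promoter windows of the same length (250 bases before to 50 after a start), 16.8% held the RUNX letters, 7.15% the E-box, 3.19% the MEF2 motif and 4.51% the NF-κB motif. No NF-κB match was found in the 14 windows of 7 members, which says only that these letters are not in those windows, and Maf had no entry in the table. A match is a description of the letters, not a binding site.

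Each library had between 7500 and 12315 barcodes and between 72007219 and 93205362 UMIs, and 103065 nuclei were used after doublets were left out. The microglia-like cluster held 4355 nuclei, 191 to 723 per mouse, with 386067 to 1645566 UMIs per mouse. All 18 markers chosen for microglia were raised in it, and neither its clustering nor its naming used any of the 8 factors. Levels are given as CPM, the UMIs of a gene per 1000000 UMIs summed over the nuclei of one type in one mouse. Of other lists in these nuclei, border macrophage markers summed to 11.4 to 394 CPM in nontransgenic and 64.4 to 229 CPM in tau mice, and the T cell and monocyte or neutrophil lists had 3 genes each at 0. Pairs of libraries shared 15 to 45 barcodes, at most 0.425% of a library. In the microglia-like nuclei Ikbkb itself was at 112 and 116 CPM in the knockout mice and at 124 to 163 CPM in the other mice, a small difference in a 3′ assay that counts pre-mRNA.

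Of the 8 factors, 7 were counted, and the first result is the level of each in microglia-like nuclei. Mef2c averaged 1539 ± 315 CPM (SD, n = 11 mice), Mef2a 1452 ± 169, Runx1 1153 ± 110, Ikzf1 1053 ± 63.9, Maf 375 ± 76.2, Sall1 257 ± 35.9 and Bhlhe41 37.8 ± 9.72 CPM. Long genes can collect more pre-mRNA, so these levels do not rank the genes. The share of pre-mRNA was not measured, so values per kilobase of gene are only another description. Sall1 was at 15.2 ± 2.12 and Maf at 15.1 ± 3.07 CPM per kb. Ikzf1 was at 11.98, Mef2a at 10.2, Mef2c at 9.44, Bhlhe41 at 5.17 ± 1.33 and Runx1 at 5.13 ± 0.487 CPM per kb. Sall1 and Maf lay within their spread, as did Bhlhe41 and Runx1, and no order was tested. Between mice Ikzf1 varied least, with a coefficient of variation of 6.07%, and Bhlhe41 most, at 25.7%, on 8 to 81 UMIs per mouse.

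The annotation places them apart from each other. In GENCODE M21 on GRCm38, Runx1 lies at chr16:92601466-92826149, Ikzf1 at chr11:11685003-11772926, Mef2a at chr7:67231163-67372858 and Mef2c at chr13:83504034-83667080. Sall1 lies at chr8:89027235-89044162, Maf at chr8:115682942-115707794 and Bhlhe41 at chr6:145858243-145865558. None of these 7 overlaps another gene on its strand.

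**Figure D1:**
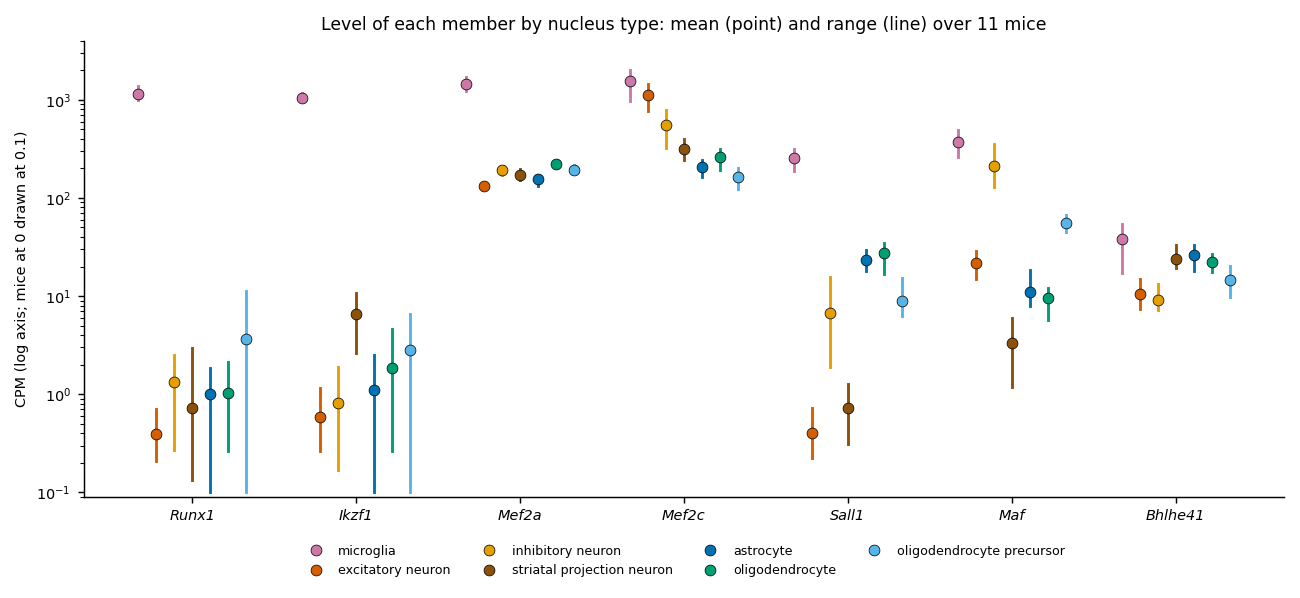
CPM of each counted factor by nucleus type on a log axis, with points for the mean over the 11 mice, lines from the lowest to the highest mouse, and mice at 0 drawn at 0.1. Runx1 and Ikzf1 have means of 1153 and 1053 CPM in microglia-like nuclei and means below 10 CPM in the other types shown, whereas Mef2c is at 1115 CPM in excitatory neurons.

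Against the other cell types, Runx1 and Ikzf1 stood out most in the microglia-like nuclei. Runx1 was at 1153 CPM there and at 3.65 CPM in the next main type, oligodendrocyte precursors, a ratio of 320. Ikzf1 was at 1053 CPM and next among the main types in striatal projection neurons at 6.51 CPM, a ratio of 146. In types with fewer nuclei, Runx1 reached 27.3 CPM in mural nuclei and Ikzf1 10.2 CPM in endothelial nuclei. Ratios between types are geometric means over mice with 1 CPM added to each level, and with 10 CPM added those of Runx1 and Ikzf1 were 87.2 and 64.8, since the lower levels are near 0. Of the 17 clusters, 2 had too few markers for a name and are outside these types: one of 7811 nuclei, with 2 excitatory neuron markers raised, and one of 5664 nuclei led by mitochondrial genes. Runx1 was at 0.451 and 5.38 CPM in them, Ikzf1 at 0.457 and 9.42 CPM and Mef2c at 556 and 820 CPM. Their order further down could not be told apart for Runx1, whose 6 other types lay at 0.393 to 3.65 CPM with no neighboring pair passing the exact sign-flip test over mice.

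Sall1 and Mef2a were higher in microglia-like nuclei by a smaller factor. Sall1 was next highest in oligodendrocytes at 27.2 CPM and astrocytes at 23.4 CPM, which differed in 8 of 11 mice and not beyond their spread (exact sign-flip adjusted p = 0.255 over 42 neighboring pairs). Excitatory neurons had 0.398 CPM. Among the main types Mef2a was next highest in oligodendrocytes at 221 CPM, a ratio of 6.52, and the others ranged down to 133 CPM in excitatory neurons. Rarer types held more Mef2a than oligodendrocytes. Endothelial nuclei had 490 CPM in 6 mice, and mural and fibroblast-like nuclei had 360 and 335 CPM in 9 mice each.

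Mef2c, Maf and Bhlhe41 were shared with other cell types. Mef2c in excitatory neurons was at 1115 ± 207 CPM, and the microglia-like nuclei exceeded it in 10 of 11 mice by a ratio of 1.37. Excitatory Mef2c at the share of neuronal transcripts found in the microglia-like nuclei would be 209 to 357 CPM, or 15.2 to 24.97% of their Mef2c level, and its part in this ratio was not tested. Inhibitory neurons followed at 558 CPM, mural nuclei had 887 CPM in the 9 mice with enough of them, and each step down the order of the main types, which ended at 162 CPM in oligodendrocyte precursors, passed the test. Maf in inhibitory neurons was at 211 ± 61.8 CPM, and among the inhibitory clusters the one led by Sst and Lhx6 had 370 ± 28.5 CPM, close to the 375 CPM of microglia-like nuclei. Fibroblast-like nuclei had 381 ± 162 CPM of Maf in 9 mice. Bhlhe41 was at 25.9 CPM in astrocytes, 23.6 in striatal projection neurons and 22.1 in oligodendrocytes, and these neighbors did not differ beyond their spread.

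All 7 counted factors had a higher level in microglia-like nuclei than in the highest of the 6 other main types, as did 30.5% of the 8958 genes tested, by an exact sign-flip test over mice. The 8958 genes are those that passed the filter on low counts in microglia-like nuclei, the type in which the factors are high. The nuclei were also grouped by their expression of other genes, so the count and the share are only a description. Nuclei thinned to 1000 UMIs gave the shares of nuclei with at least 1 UMI. For Runx1 the share was 62.3% in microglia-like nuclei, 0.119% in oligodendrocytes and 0.0472% in excitatory neurons, and without thinning it was 80.8, 0.265 and 0.442%. Ikzf1 was found in 61.4% of thinned microglia-like nuclei and Sall1 in 21.9%, against 0.147 and 2.55% in oligodendrocytes. A thinned microglia-like nucleus held on average 3.25 ± 0.162 of the factors, and 63.3 to 81.2% of them per mouse held at least 3. Thinning left out 20 microglia-like nuclei with fewer than 1000 UMIs in all.

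As a description of which genes share these patterns, the 3 genes with the highest Pearson correlation to each factor were taken over 77 mouse and cell type sums, which share libraries and depth. Runx1 was most like Spi1, the gene of PU.1 (r = 0.99), Csf3r and Myo1f. Ikzf1 was most like Il10ra (0.97), Gtf2h2 and Rcsd1, and Mef2a most like Cx3cr1 (0.98), Cd300c2 and BC035044. Sall1 was most like Tmcc3 (0.97), Tcirg1 and Cul1, Maf most like Slc24a3 (0.95), P3h2 and Ifitm10, and Mef2c most like Coro2a (0.93), Ipcef1 and Fbxw7. Bhlhe41 had the lowest best match, Smad4 at 0.89, followed by Ddx5 and Gm16124.

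Irf8 was listed at 0 in every one of the 11 libraries, over 901067359 UMIs. In microglia-like nuclei 0 of 9419384 UMIs would allow at most 0.318 CPM by counting error, but this limit cannot be read as the level of the transcript. Irf8, at chr8:120736358-120756694 on the plus strand, lies wholly inside Gm20388, an annotated gene on the same strand that spans chr8:119910841-124345722. Reads that overlap both genes on one strand match more than 1 gene, and Cell Ranger counts only reads that match 1 gene.

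The neighbors of Irf8 show how far this reaches. Gm20388 encloses 59 genes on its strand, and 59 of them were at 0, including 36 of 36 protein-coding genes. Among these are Cox4i1, a subunit of cytochrome c oxidase, Rpl13, a ribosomal protein, and Map1lc3b, an autophagy protein, which were singled out after their values were seen because nearly every cell uses them. On the opposite strand it encloses 49 genes, of which 0 were at 0. Gm20388 itself had 321143 UMIs and 455 CPM in microglia-like nuclei. Over the whole annotation, 416 of 417 protein-coding genes that lie inside another gene on the same strand were at 0 (99.8%), with Lipo2 at 14 UMIs the exception, against 1733 of 21480 that do not (8.07%). Irf8 was therefore not measured in these files, and no comparison below includes it.

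**Figure D2:**
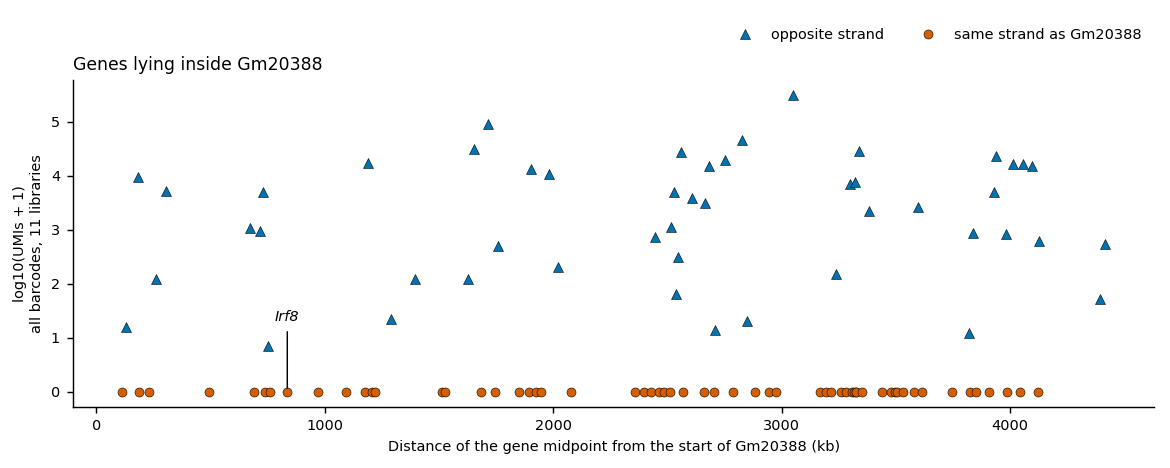
Log10 of UMIs plus 1, over all barcodes of the 11 libraries, of the genes inside Gm20388, by distance of the gene midpoint in kb from its start, with the strand relative to Gm20388 marked. The 59 genes on the same strand, Irf8 among them, sit at 0, and the 49 on the opposite strand all have UMIs.

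Whether tau and NF-κB activity change these factors was then asked in microglia-like nuclei, with UMIs summed per mouse and edgeR's quasi-likelihood test over 8958 genes. Calls needed an adjusted p (Benjamini-Hochberg, over these genes) below 0.05 together with a log2 fold change beyond 0.1 in either direction. In 3 of 4 contrasts no factor was called, and in the last, active IKKβ P301S against nontransgenic mice, Mef2c was lower. The labels name separate mice, so the p-values measure the spread between mice of these small groups.

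**Figure D3:**
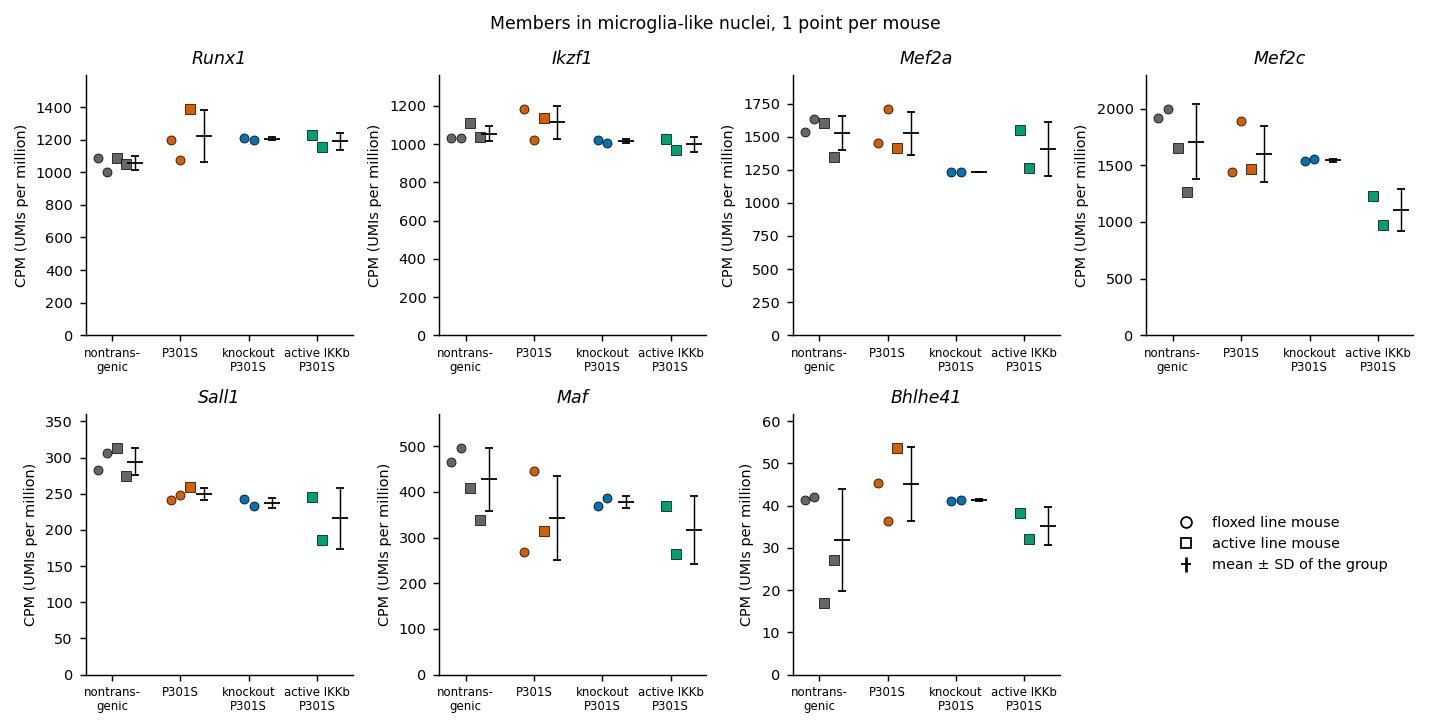
CPM of the 7 counted factors in microglia-like nuclei, 1 point per mouse, by genotype, with circles for mice of the floxed line, squares for mice of the active line, and bars for the group mean ± SD. Mef2c in both active IKKβ mice (972 and 1233 CPM) is below every other mouse, and Sall1 in all tau mice (186 to 259 CPM) is below the nontransgenic mice (274 to 313 CPM).

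Mef2c, the MEF2 factor shared with neurons, was at 1914, 2001, 1656 and 1264 CPM in the nontransgenic mice. The P301S mice had 1445, 1887 and 1465.5 CPM, the knockout mice 1535 and 1554 CPM, and the active IKKβ mice 1233 and 972 CPM. Both active IKKβ mice were thus below each mouse of the other groups, as in 2.56% of the genes tested, although 1233 CPM was close to the lowest nontransgenic mouse at 1264 CPM. The log2 fold change was -0.67 ± 0.17 (SE) against nontransgenic mice (edgeR adjusted p = 0.0312), which makes Mef2c 1 of 7 factors called where 3.68% of all genes tested were called in either direction. Against P301S mice it was -0.56 ± 0.18 (adjusted p = 0.158), and P301S against nontransgenic mice gave -0.11 ± 0.15. Knockout against P301S mice gave -0.05 ± 0.18.

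Mef2c in the active IKKβ mice depended on few animals. Within the active line, where 2 nontransgenic mice are at 1264 and 1656 CPM, the log2 fold change was -0.43 ± 0.15 (edgeR adjusted p = 0.142). The call was lost without nontransgenic replicate 1 (-0.60, adjusted p = 0.108), replicate 2 (-0.58, 0.104) or replicate 3 (-0.69, 0.0521), and without active IKKβ replicate 2 (-0.50, 0.357). The nontransgenic mice of the floxed line, replicates 1 and 2, were at 1914 and 2001 CPM, above those of the active line at 1656 and 1264 CPM. Among P301S mice the active-line mouse, at 1465.5 CPM, lay between the floxed-line mice at 1445 and 1887 CPM. Its direction was negative in all 24 alternatives run, but these reuse the same mice. With both active IKKβ mice below every other mouse, leaving out a mouse could hardly turn the sign, so this is no separate support.

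Neuronal RNA was also lower in the active IKKβ mice than in the nontransgenic mice. A list of 20 neuronal transcripts summed, in the microglia-like nuclei and in the same order of mice as Mef2c above, to 8662, 8549, 9552 and 10490.0 CPM in nontransgenic mice, 9059, 8364 and 6887 CPM in P301S mice, 10107 and 9072 CPM in knockout mice, and 7366 and 7811 CPM in active IKKβ mice, with 0 of its genes at 0 in any group. These sums were 21.4 to 32.3% of those in excitatory neurons of the same mouse. Excitatory Mef2c at the same ratio would be 249 to 357 CPM in nontransgenic and 209 and 243 CPM in active IKKβ mice. For Mef2a it would be 1.76 to 3.21% of the level, for Maf 1.08 to 2.35%, for Bhlhe41 4.69 to 25.4%, and for Runx1, Ikzf1 and Sall1 under 0.1%. The part of neuronal RNA in the Mef2c difference was not tested.

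In the other cell types of the same mice, Mef2c in active IKKβ against nontransgenic mice had a log2 fold change of -0.29 ± 0.23 in excitatory neurons and -0.52 ± 0.24 in inhibitory neurons. Astrocytes gave -0.33 ± 0.13, oligodendrocytes -0.24 ± 0.16, oligodendrocyte precursors -0.19 ± 0.16 and striatal projection neurons 0.13 ± 0.16. None of these was called by edgeR (lowest adjusted p = 0.567). That the difference was larger in microglia-like nuclei than in these types was not tested.

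Mef2a, the partner MEF2 gene, was at 1533, 1634, 1601 and 1345.5 CPM in nontransgenic mice and at 1455, 1712 and 1410.5 CPM in P301S mice. The knockout mice had 1232 and 1231 CPM, and the active IKKβ mice 1553 and 1265 CPM. The knockout pair, also the youngest group, lay below every other mouse, as in 2.28% of the genes tested, although 1232 CPM was close to the active IKKβ mouse at 1265 CPM. The active IKKβ pair overlapped both control groups. Knockout against P301S mice gave a log2 fold change of -0.31 ± 0.14, with an unadjusted p of 0.0391 and an adjusted p of 0.596 by edgeR.

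Sall1, the zinc finger repressor, was at 282, 307, 313 and 274 CPM in nontransgenic mice. The P301S mice had 242, 248 and 259 CPM, the knockout mice 243 and 233 CPM, and the active IKKβ mice 246 and 186 CPM. All 7 tau mice were below all 4 nontransgenic mice, a pattern noticed after the values were seen. Of the genes tested, 0.324% had every tau mouse below every nontransgenic mouse. The nearest mice of the 2 sides were at 259 and 274 CPM. Sall1 had 109 to 192 UMIs in each nontransgenic mouse and 96 to 404 in each tau mouse, and counting error was not set against this gap. The log2 fold change was -0.25 ± 0.13 for P301S against nontransgenic mice (edgeR adjusted p = 0.700) and -0.48 ± 0.14 for active IKKβ against nontransgenic mice (adjusted p = 0.0666). It was called in the second contrast with age in the model (-0.51, adjusted p = 0.0491), with doublets kept (-0.62, 0.0259) and without border macrophage nuclei (-0.51, 0.0483), and it was called in 1 of 10 further random draws of nuclei thinned to 1000 UMIs, with adjusted p of 0.0260 to 0.544 over the draws. Of the 24 alternatives run, 3 called it. Within the active line it was -0.47 (adjusted p = 0.142), and it was -0.69 without active IKKβ replicate 1 (0.0541) and -0.29 without replicate 2 (0.608). Mef2c was called in that contrast in 10 of 10 such draws.

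Maf, the leucine zipper factor, was at 466, 497, 409 and 338 CPM in nontransgenic mice, 269, 446 and 314 CPM in P301S mice, 368 and 387 CPM in knockout mice, and 370.1 and 264 CPM in active IKKβ mice. All groups overlapped. Active IKKβ against nontransgenic mice gave -0.46 ± 0.19 (edgeR adjusted p = 0.256), which was -0.72 without active IKKβ replicate 1, -0.23 without replicate 2 and -0.26 within the active line.

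Runx1 was at 1088, 999, 1087 and 1049 CPM in nontransgenic mice, 1201, 1073 and 1391 CPM in P301S mice, 1213 and 1201 CPM in knockout mice, and 1226 and 1154 CPM in active IKKβ mice. The log2 fold change of P301S against nontransgenic mice was 0.20 ± 0.11 (edgeR adjusted p = 0.713). It was 0.11 without P301S replicate 3, the mouse of the active line, and 0.12 within the floxed and 0.34 within the active line, where it is the only P301S mouse. Tau and nontransgenic mice overlapped, with P301S replicate 2 (1073 CPM) within the nontransgenic range.

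Ikzf1, Ikaros, varied least relative to its mean. It was at 1034, 1029.9, 1113 and 1037 CPM in nontransgenic mice and 1186, 1020.3 and 1136 CPM in P301S mice. The knockout mice had 1023 and 1008 CPM and the active IKKβ mice 1026 and 970.5 CPM. Log2 fold changes over the 4 contrasts ran from -0.18 to 0.07 and none was called.

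Bhlhe41 was low, at 41.4, 42.0, 17.1 and 27.1 CPM in nontransgenic mice, 45.3, 36.3 and 53.7 CPM in P301S mice, 41.1 and 41.4 CPM in knockout mice, and 38.3 and 32.0 CPM in active IKKβ mice. Nontransgenic mice of the active line, replicates 3 and 4, had the lowest values of all. Comparing P301S with nontransgenic mice, its log2 fold change was 0.54 ± 0.26 (edgeR adjusted p = 0.665), which was 1.19 ± 0.33 within the active line (adjusted p = 0.0716), which has 1 P301S mouse whose spread is assumed to be that of the other groups, and -0.06 ± 0.32 within the floxed line.

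Counted over the 7 factors, P301S against nontransgenic mice gave 0 calls by edgeR and 0 by DESeq2, where 0.0335% of all genes tested were called, and 0 factors at an unadjusted p under 0.05, where 7.42% of genes were. Knockout against P301S mice gave 0 calls by either tool, where 0% of genes were called, and 1 factor at an unadjusted p under 0.05, Mef2a, where 8.19% of genes were. Active IKKβ against P301S mice gave 0 calls by either tool, where 1.48% of genes were called, and 1 factor at that p, Mef2c, where 8.84% of genes were. For active IKKβ against nontransgenic mice DESeq2 called 1 factor as edgeR did, and 3 factors had an unadjusted p under 0.05, as did 13.4% of genes. The test of any difference among the 4 genotypes gave 0 calls by either tool, where 2.42% of genes were called, and 2 factors at that p, Mef2c and Sall1, where 12.6% of genes were. Directions were 5 of 7 negative for active IKKβ against nontransgenic mice, where 53.0% of all genes were negative, with a median log2 fold change of -0.16 against -0.02 for all genes tested. Against P301S mice 7 of 7 were negative, where 52.5% of all genes were, with a median of -0.18 against -0.01, and Runx1, Mef2a and Maf each turned positive when 1 mouse was left out (up to 0.03, 0.02 and 0.10). These contrasts share their active IKKβ mice.

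**Figure D4:**
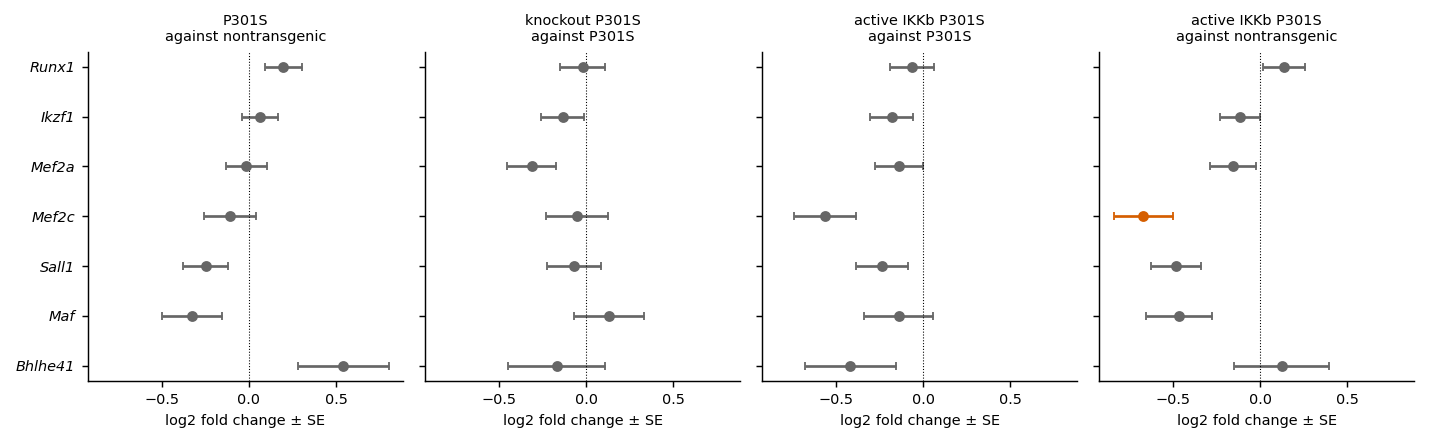
Log2 fold change of each counted factor in microglia-like nuclei with its SE, in the 4 contrasts, from edgeR, with called values in orange and the others in gray. Mef2c in active IKKβ against nontransgenic mice (-0.67 ± 0.17) is the called value.

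In the 6 other main cell types, 108 tests of the factors gave 0 calls by edgeR and 0 by DESeq2, and 5 had an unadjusted p under 0.05, where 5.95% of the tests of all genes did. They cover P301S against nontransgenic mice and both Cre groups against P301S mice. Active IKKβ against nontransgenic mice is outside this count. There edgeR called no factor, and its unadjusted p was 0.0196 for Mef2c in astrocytes and 0.0218 for Mef2a in inhibitory neurons. All genes tested in these types were called at 0.0134% for P301S against nontransgenic mice, 0% for knockout against P301S mice and 0.00243% for active IKKβ against P301S mice.

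Other factors of the myeloid lineage were read from a list of 30 genes, of which 24 were tested in microglia-like nuclei. In active IKKβ against nontransgenic mice 2.23% of all genes tested rose and 1.45% fell. Of the 24 lineage genes 0 rose there and 1 fell: Fli1, an ETS factor of blood and endothelium, at -0.46 ± 0.12 on the log2 scale (edgeR adjusted p = 0.0355). This is 1 call among 24 genes, near the 3.68% of all genes called in that contrast. Spi1, the gene of PU.1, had 0.17 ± 0.20 in the same contrast. The median over the list was 0.09, against -0.02 for all genes tested, and in the other 3 contrasts 0 of the 24 were called. Of 21 family relatives and partners of the 8 factors, 9 were tested and 1 fell in the same contrast: Cbfa2t3, a corepressor related to Runx1t1, the translocation partner of RUNX1, with -1.01 ± 0.26 (adjusted p = 0.0358). Cbfa2t3 lies inside Gm20388 on the opposite strand, so it was counted. Of 19 homeostatic genes tested 5 fell and 1 rose in this contrast, and of 29 genes of disease-associated microglia (DAM) 7 rose and 0 fell. The active IKKβ mice also carry tau. In P301S against nontransgenic mice 50.6% of all genes were negative and 0.0335% were called. There, 29 of the 29 DAM genes had a positive log2 fold change and 1 was called. In active IKKβ against P301S mice 0 of them rose and 1 fell, where 1.48% of all genes were called, and 18 were negative, where 52.5% of all genes were. In knockout against P301S mice 27 were negative, where 52.1% of all genes were, and 0 were called.

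Lastly, nuclei of the same mouse were compared by how much of the DAM program they held. Nuclei thinned to 1000 UMIs with at least 4 UMIs of 38 DAM genes were DAM-high. Of all nuclei 1752 were high and 2583 low, with 517 nuclei at 4 UMIs and 721 at 3 UMIs, next to the limit. Each nontransgenic mouse had 63 to 82 high and 159 to 249 low nuclei. The P301S mice were unlike each other: replicate 1 had 69 high and 180 low, replicate 2 had 134 and 185, and replicate 3 had 518 and 205. DAM-high therefore names a class by UMIs and not a state found only in tau mice. Raw UMIs of each class were then summed per mouse. With 11 mice the smallest p of the exact sign-flip test is 0.00098.

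**Figure D5:**
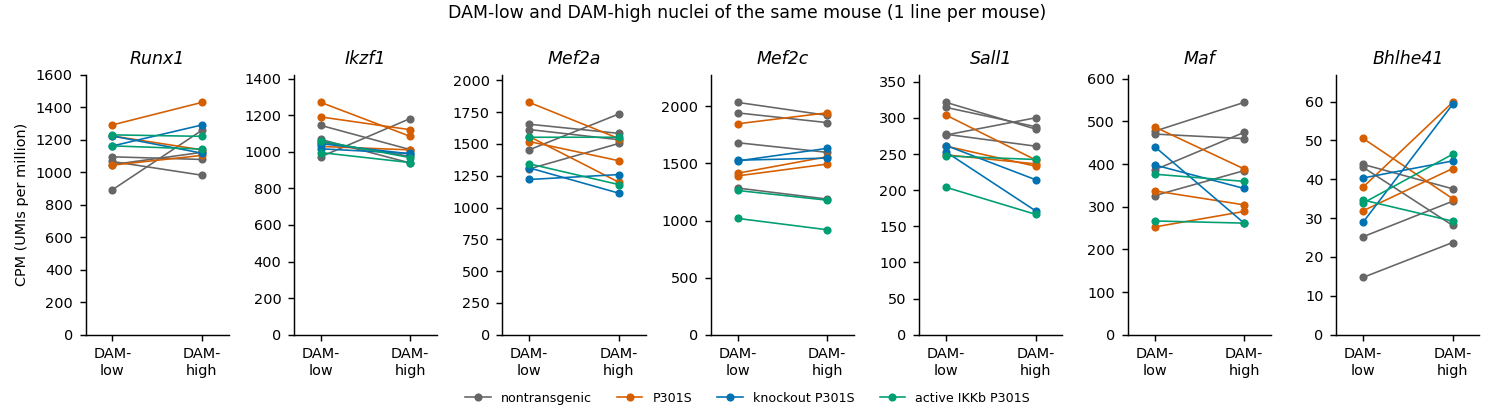
CPM of each counted factor in DAM-low and DAM-high microglia-like nuclei, with 1 line joining the 2 values of each mouse, colored by genotype. In the draw shown Sall1 and Ikzf1 are each lower in the DAM-high nuclei in 10 of 11 mice.

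Sall1 was lower in DAM-high nuclei in 10 of 11 mice. In nontransgenic mice it was at 300.2, 288, 285 and 261 CPM in DAM-high and 276, 315, 321 and 277 CPM in DAM-low nuclei. The P301S mice had 236, 233 and 242 CPM against 249, 261 and 304 CPM, the knockout mice 214 and 171 against 262 and 253 CPM, and the active IKKβ mice 242 and 167 against 247 and 204 CPM. Nontransgenic replicate 1 was the mouse in which the high class exceeded the low class. The mean log2 difference was -0.17 ± 0.18 (SD, n = 11; exact sign-flip p = 0.0078, adjusted p = 0.217 over 8958 genes). Ikzf1 was also lower in 10 of 11 mice, by a mean log2 difference of -0.08 ± 0.13 (exact sign-flip p = 0.0889, adjusted p = 0.548).

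The Sall1 value depended on the random thinning that assigns nuclei to the classes. Over 100 further draws, with the clustering held fixed, the Sall1 difference was negative in 100, with a median of -0.20 and a range of -0.32 to -0.05, and the exact sign-flip p ran from 0.00098 to 0.503, under 0.05 in 70 draws. The number of mice with more Sall1 in DAM-high nuclei was 0 to 6 by draw, and for Ikzf1 it was 1 to 7, so the 1 mouse of the reported draw is at the low end for Ikzf1. The lowest adjusted p of Sall1 was 0.0795. By draw, the 6 other factors reached an unadjusted p under 0.05 in 2 to 38 draws, Bhlhe41 most often, with a median of 0.40 and 1 draw negative. The choice of nuclei moved the Sall1 difference as well. With doublets kept it was -0.01 (exact sign-flip p = 0.805), and without border macrophage nuclei it was -0.10 (p = 0.111). With at least 5 UMIs of DAM genes required it was -0.32 in 11 mice (exact sign-flip p = 0.00684), and with at least 6 it was -0.43 in 9 mice (exact sign-flip p = 0.0117). These p-values are unadjusted. Over 18 alternatives, these included, the lowest adjusted p of the exact sign-flip test was 0.134, and 0 were under 0.05. In the reported draw 0 factors passed the adjusted limit, as 0% of genes did, and 1 factor, Sall1, had an unadjusted p under 0.05, as did 11.1% of genes. The neuronal list was also lower in DAM-high nuclei, at 8386 against 8910.0 CPM and in 10 of 11 mice, and its part in the Sall1 difference was not tested.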

How the data were processed

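Single nuclei of mouse cortex were sequenced in 11 libraries. The authors deposited raw UMI counts per gene and barcode, made with Cell Ranger 3.1.0 against mm10 with pre-mRNA counted. The submitters' notes also name Seurat 3.0. The deposited counts were not normalized.

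Of 114118 barcodes, 112539 passed limits of 300 to 8000 detected genes and a mitochondrial share of at most 5%. Of these, the 9474 (8.42%) most like simulated doublets of their library were left out as doublets. Their number was fixed beforehand per library by an assumed rate and its barcode count, so it does not measure how many doublets there were. Nuclei were clustered (2000 variable genes without the 8 factors, 15 components, Leiden at a resolution of 0.1, igraph 0.11.9) and named from markers, which gave 17 clusters, 2 of them left unnamed and in no type. UMIs were summed per mouse and type, and types with at least 10 nuclei in every mouse were tested with edgeR 4.0.16 in R 4.3.3 (TMM, filterByExpr, 1 term per genotype, all 11 mice), checked on simulated data. DESeq2 1.42.0 was an alternative. Paired comparisons used exact two-sided sign-flip tests over mice, on log2(CPM + 1) between types and with a prior count of 0.5 between DAM classes. Their p-values were adjusted over all genes tested rather than over the 8 factors as first planned, and for neighboring cell types over the 42 pairs. The sign ± gives the SD over mice for levels and the SE for fold changes. Limits cover counting error only. Thinning draws UMIs at random, so further draws are reported.

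The factors and gene lists were chosen with earlier results of these data known. Named beyond the factors were lineage and family genes called in a contrast, at most 5 each by fold change, and the 3 genes most like each factor among genes with at least 50 CPM in a type. Spi1, Lipo2 and the neighbors of Irf8 were named after their values were seen. Replicate numbers in the titles mark no shared animal. Deviations of same-numbered libraries correlated at a median of 0.01 (range -0.15 to 0.18) and those of different-numbered libraries at -0.01 (-0.18 to 0.15). In the smallest groups the deviations mirror each other by construction, so this cannot show whether the numbers pair mice. In the active line, same-numbered nontransgenic and active IKKβ mice had the same ages, 10.85 and 9.8 months. Coordinates are GENCODE M21 on GRCm38, and 30934 of 31053 identifiers were matched for the overlap of genes.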

Additional observations from a re-analysis of the deposited data

Results flagged for a closer look

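Ikzf1 in the microglia-like nuclei of nontransgenic replicate 3 was at 1112.8 CPM, apart from the other 3 nontransgenic mice at 1029.9 to 1037 CPM by more of the group's range than Dixon's 95% limit for 4 samples allows. The 7 counted factors were each examined this way in the nontransgenic group, and chance flags about 1 in 20 groups.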

How the results depend on the processing

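For active IKKβ P301S against nontransgenic mice, the number of factors called was 1, and it was 0 with the breeding line as a covariate or within the active line, 2 with age as a covariate or without border macrophage nuclei, and 0 to 1 with a mouse left out. For active IKKβ against P301S mice 1 factor was called with no filter on low counts (Mef2c, -0.51, adjusted p = 0.0231), and in the test over the 4 genotypes 1 was called with no filter and 0 to 1 with a mouse left out. With the line as a covariate Mef2c in active IKKβ against nontransgenic mice was -0.48 (adjusted p = 0.139) and with doublets kept -0.65 (0.0696), and leaving out a mouse gave -0.85 to -0.50 (0.00421 to 0.357). Over all alternatives its adjusted p ran from 0.000754 to 0.357 and was under 0.05 in 17 of 24. These alternatives reuse the same mice, and some leave out a mouse that is not in this contrast, so the tally does not measure robustness. The replicate block by title number left Mef2c called (-0.67, adjusted p = 0.0484), changed no count of factors called, and gave 0.0023 for Runx1 in knockout against P301S mice.

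Log2 differences of uncalled factors changed sign. For P301S against nontransgenic mice, Mef2a was 0.013 in thinned nuclei, 0.0082 in the median of 10 draws and -0.11 to 0.056 with a mouse left out, and Bhlhe41, at 0.54 over all mice, was -0.064 within the floxed line. For knockout against P301S mice, Runx1 was 0.022 with the line and 0.065 with age as a covariate, 0.015 with doublets kept, 0.00097 in nuclei gated by marker UMIs, 0.071 within the floxed line, and -0.10 to 0.070 with a mouse left out. Mef2c was 0.049 with age, 0.028 in a second thinning draw and -0.13 to 0.091 with a mouse left out, Sall1 0.092 with age and 0.15 in thinned nuclei, and Bhlhe41 0.022 within the floxed line and -0.29 to 0.023 with a mouse left out. For active IKKβ against P301S mice, Mef2a was 0.0076 within the active line and -0.29 to 0.015 with a mouse left out, Maf 0.074 with the line, 0.027 within the active line and -0.40 to 0.096 with a mouse left out, and Runx1 -0.14 to 0.034 with a mouse left out. Against nontransgenic mice with doublets kept, Runx1 was -0.019 and Bhlhe41 -0.00075, and Bhlhe41 was -0.064 to 0.31 with a mouse left out. Between DAM classes with doublets kept, Ikzf1 was 0.12, Mef2a 0.12, Mef2c 0.086 and Maf 0.15, while Sall1 kept its sign at -0.013, and with a mouse left out Mef2c was -0.028 to 0.0014 and Maf -0.090 to 0.016. The causes were not tested. Alternatives within a line, the thinning draws after the first and their medians were added after seeing the data. Groups of 2 or 3 mice and 8 to 81 UMIs of Bhlhe41 per mouse limit what could be called.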
